A study of Rattus norvegicus with 30 samples.

Results

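Dhh, Ptch1, Smo, Gli1, Gli2, Gli3 and Hhip are the core genes of Hedgehog signalling in the testis, and they were chosen by name, through their rat Entrez Gene identifiers (84380, 89830, 25273, 140589, 304729, 140588 and 291936). All 7 were among the 17322 genes listed by the authors. RNA was measured by bulk RNA sequencing in testes of Wistar Han rats at 6 ages, from 8.5 and 14.5 days postpartum (dpp) through 24.5 and 30.5 dpp to 36.5 and 53.5 dpp, and in testicular explants after 4 culture periods, 6 days (D6), 16 days (D16), 22 days (D22) and 28 days (D28). Explants were taken at 8.5 dpp, each testis being cut into 6 fragments, and were kept on agarose at 34 °C at the gas-liquid interface in αMEM with Knock-out serum replacement, retinol and vitamin E. D6 tissue therefore had the age of 14.5 dpp testes, D16 that of 24.5 dpp, D22 that of 30.5 dpp and D28 that of 36.5 dpp. Each group held 3 libraries, and each in vivo library was 1 testis. Each cultured library was a pool of explants from at least 3 males, with the central necrotic area removed. One 14.5 dpp testis, labelled as an outlier, is listed at 0 for every gene and was not used, so 14.5 dpp rests on 2 testes and 29 libraries were compared.

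Desert hedgehog, encoded by Dhh, is secreted by Sertoli cells and acts on cells outside the seminiferous cord, the Leydig cell lineage and the peritubular myoid cells. It binds the receptor PTCH1, which otherwise holds the membrane protein SMO inactive, and SMO in turn controls the GLI transcription factors. GLI1 is an activator, GLI2 mainly an activator and GLI3 mainly a repressor, while HHIP is a membrane protein that binds and sequesters Hedgehog ligands. Gli1, Ptch1 and Hhip are themselves classical transcriptional targets of the pathway, and Dhh is also made by Schwann cells and some endothelial cells.

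Ptch1 and Hhip are target genes of the pathway that reached very different levels in culture, so the 250 bases before their transcription start are printed here, 5′ to 3′ on the strand of the gene, from RefSeq on the GRCr8 assembly. The capitals mark the GLI binding motif, searched as GACCACCCA or its reverse complement TGGGTGGTC.
Ptch1 (chr17:1555321-1555570, plus strand): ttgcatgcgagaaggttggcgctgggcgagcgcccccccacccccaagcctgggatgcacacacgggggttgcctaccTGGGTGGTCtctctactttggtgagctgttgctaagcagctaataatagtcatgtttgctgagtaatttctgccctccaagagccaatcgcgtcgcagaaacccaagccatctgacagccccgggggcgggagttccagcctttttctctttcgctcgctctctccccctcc
Hhip (chr19:44767788-44768037, plus strand): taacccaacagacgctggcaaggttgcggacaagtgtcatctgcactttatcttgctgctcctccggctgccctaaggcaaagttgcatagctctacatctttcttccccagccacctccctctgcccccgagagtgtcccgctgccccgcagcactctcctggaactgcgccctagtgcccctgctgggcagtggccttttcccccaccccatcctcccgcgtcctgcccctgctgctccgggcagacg
The Ptch1 window held 1 motif, on the opposite strand, whose first printed base lies 172 bases before the start. The Hhip window held none, nor did those of Dhh, Smo, Gli2 and Gli3, also with 1 mismatch allowed. Gli1 had no sequence in the promoter set used and was not searched. Of 33465 windows of the same length, 0.338% held the motif, and 6.15% did with 1 mismatch. A match describes these letters and is not evidence of binding. The expression values were aligned to another assembly, rn6, and no coordinate was carried between the assemblies.

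Levels are given in FPKM, fragments scaled to transcript length and to the mapped reads of the library, so that they can be compared between genes. Differences are on the log2(FPKM + 1) scale, which understates the change of genes near or below 1 FPKM. A gene was called when its limma adjusted p-value (Benjamini-Hochberg over all genes tested) was at most 0.05 and its group medians differed by a ratio of at least 2. The absolute depth is unknown, because no read counts entered. The spacing of low values placed the relative depth of 26 libraries between 0.892 and 1.32 of the first 8.5 dpp library. Each library had 12520 to 13563 genes with a level above 0. An exact 0 can be a failed estimate in these files, since Csnk1a1, a kinase gene used by every cell, is listed at 0 in 25 libraries.

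All 7 genes were far lower in adult than in prepubertal testes, and in cultured explants Gli3 and Hhip were called lower than in the 14.5 dpp testes while Dhh, Ptch1, Smo, Gli1 and Gli2 were not. After centring log2(FPKM + 1) on Sertoli cell markers, the adult differences of Gli2 and Gli3 turned positive. That of Hhip, -0.31, no longer passed (limma adjusted p = 0.131). Adult values below 1 FPKM have little room to fall under that centring. Divided by the same markers without a pseudocount, the mean levels of these genes fell between 8.5 and 53.5 dpp. They went from 0.103 to 0.065 (Gli2), from 0.122 to 0.0215 (Gli3) and from 0.166 to 0.00499 (Hhip). Over the in vivo ages the F test called 7 of 7 Hedgehog genes, beside 90.2% of all genes tested, a share that leaves little to read from that count. Between 8.5 and 53.5 dpp, 7 of 7 were called lower, beside 50.2% of all genes tested (23.7% were higher), and their median difference was -3.18, against -0.74 for all genes tested. The step from 14.5 to 24.5 dpp called 7 of 7 lower, beside 21.4% of all genes, and the step from 24.5 to 30.5 dpp called 6 of 7 lower, all but Hhip, beside 24.5%. From 8.5 to 14.5 dpp 1 gene, Gli2, was called higher, beside 8.37%. In bulk tissue, fewer cells of a type and less RNA per cell cannot be told apart.

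**Figure D1:**
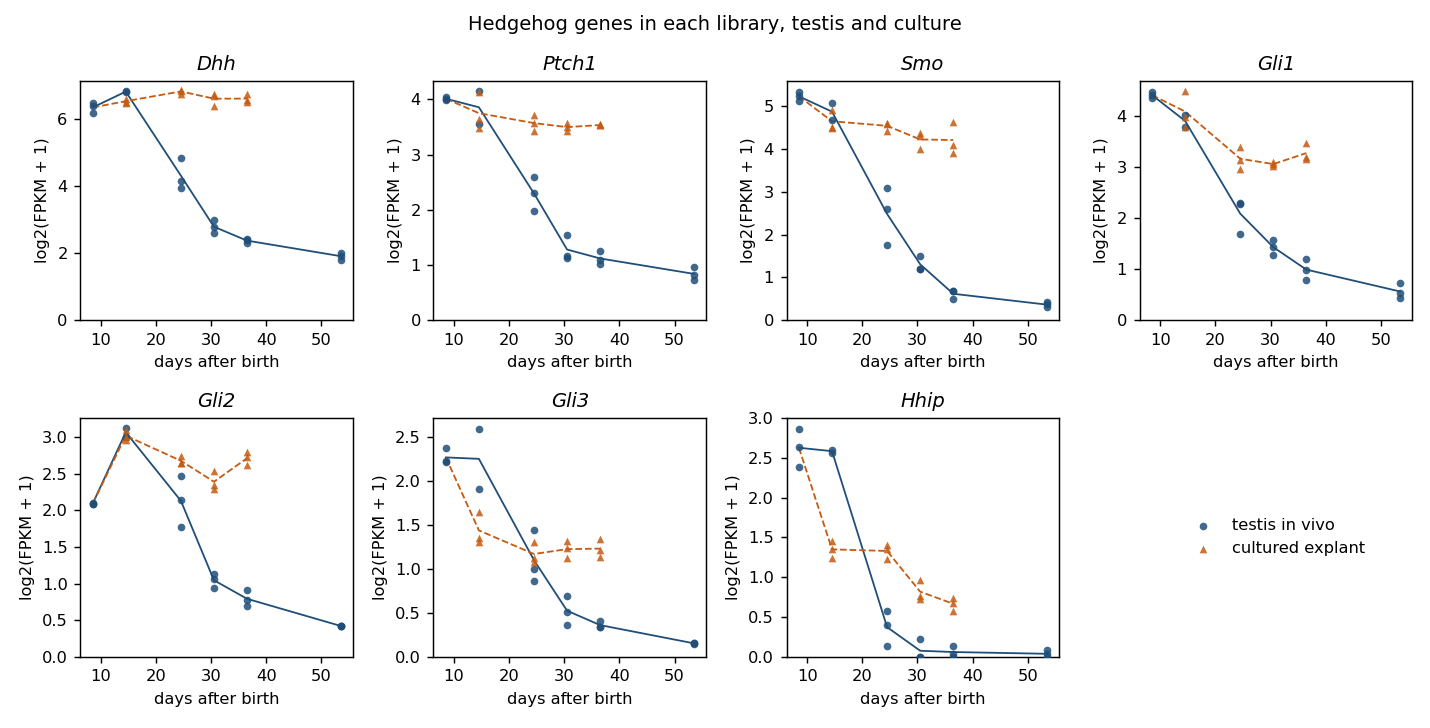
Levels of the 7 Hedgehog genes in each library, as log2(FPKM + 1) on the vertical axis, against days after birth (for explants, 8.5 plus the days in culture). Circles are testes, triangles are cultured explants, and lines join group means, the dashed line starting from the 8.5 dpp testes. Testes fall towards 0 after 14.5 dpp, whereas explants keep Dhh between 82.6 and 116 FPKM and lose Hhip to between 0.496 and 0.675 FPKM at D28. After centring on Sertoli cell markers, the 53.5 minus 8.5 dpp differences of Gli2 and Gli3 turn positive and that of Hhip, -0.31, no longer passes. Divided by the same markers without a pseudocount, the mean level of each of these genes was lower at 53.5 than at 8.5 dpp.

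Dhh, the ligand, was the most abundant of the 7 genes in every group. Its 8.5 dpp levels were 87.8, 81.4 and 71.1 FPKM, and both 14.5 dpp testes were higher, with 113 and 109 FPKM. The 24.5 dpp testes had 16.8, 14.2 and 27.5 FPKM, and the 53.5 dpp testes had 2.75, 2.46 and 3.04 FPKM. No group overlapped the next from 14.5 dpp onwards in vivo. The mean at 14.5 dpp was 40.4 times that at 53.5 dpp, and the step from 14.5 to 24.5 dpp was the largest, at -2.50 (standard error 0.20, limma adjusted p = 1.48e-07). The difference between 14.5 and 8.5 dpp, 0.47 (standard error 0.20), was not called (limma adjusted p = 0.0777).

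In culture, Dhh did not follow this fall. The D6 libraries had 96.1, 87.0 and 90.0 FPKM and the D16 libraries 105, 116 and 114 FPKM. The D22 libraries had 82.6, 106 and 101 FPKM and the D28 libraries 106, 89.0 and 93.8 FPKM. These 12 libraries ranged around a median of 98.4 FPKM, whereas the 12 testes of 24.5 to 53.5 dpp reached 27.5 FPKM at most. Against 14.5 dpp the D16 difference was 0.01 (95% interval -0.27 to 0.28), that of D22 -0.21 (-0.49 to 0.06) and that of D28 -0.21 (-0.48 to 0.06), and the F test did not call them (limma adjusted p = 0.229). The D16 difference was negative with quantile normalization, with a replicate block, with centring on Sertoli cell markers and without some single libraries. With that centring the differences at D22 and D28 were -0.45 and -0.46 (limma adjusted p = 0.0184 and 0.0156). Neighbouring groups in the order of means overlapped from D22 through D28 and D6 to 8.5 dpp, and D16 overlapped 14.5 dpp.

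Ptch1, the receptor, was at 14.9, 15.1 and 15.5 FPKM at 8.5 dpp, at 16.9 and 10.8 FPKM at 14.5 dpp and between 0.658 and 0.952 FPKM at 53.5 dpp. The 12 cultured libraries lay between 9.75 and 16.5 FPKM, and those of D28 had 10.5, 10.7 and 10.5 FPKM. Their range overlapped that of the 14.5 dpp testes, which differed from each other more than the D28 libraries did. Against 8.5 dpp, the age at which the tissue was taken, Ptch1 was lower by -0.44 (D16), -0.52 (D22) and -0.48 (D28). These single contrasts passed (limma adjusted p = 0.0109, 0.00421 and 0.00681), as did the F test along the culture (limma adjusted p = 0.0177). The ratio of medians stayed below 2, so Ptch1 was not called. The difference from 14.5 dpp was -0.32 at D28 (95% interval -0.68 to 0.04), and the F test did not call Ptch1 (limma adjusted p = 0.286). These differences depended on the pair of 14.5 dpp testes: without the higher one the D16 difference turned from -0.29 to 0.017, and without the lower one the D28 difference was -0.63 (limma adjusted p = 0.00648), and Ptch1 was not among the called genes in either case.

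Smo, the transducer that PTCH1 restrains, declined steeply in vivo. It went from 33.7, 39.4 and 36.7 FPKM at 8.5 dpp through 32.7 and 24.4 FPKM at 14.5 dpp to 0.288, 0.227 and 0.340 FPKM at 53.5 dpp, a difference of -4.87 (standard error 0.24, limma adjusted p = 5.33e-11). The D28 libraries had 23.6, 14.1 and 16.0 FPKM of Smo, above every testis of 24.5 dpp or older. Its difference from 8.5 dpp, the age at which the tissue was taken, was -1.02 (standard error 0.17, limma adjusted p = 0.000202) and was called. The difference from 14.5 dpp, -0.66 at D28 (95% interval -1.14 to -0.19), passed as a single contrast (limma adjusted p = 0.0307) but missed the F test over the 3 times (limma adjusted p = 0.0816).

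Gli1, the activator whose level is often used as a readout of the pathway, was lower in the longer cultures than at the start. It stood at 20.1, 20.9 and 19.4 FPKM at 8.5 dpp and at 12.8, 14.8 and 21.3 FPKM at D6. Levels were 9.45, 7.73 and 6.79 FPKM for D16, 7.07, 7.26 and 7.58 FPKM for D22, and 10.1, 7.84 and 8.11 FPKM for D28. No library of D16 to D28 reached the lowest D6 library or the 14.5 dpp testes (15.1 and 12.8 FPKM). The step from D6 to D16 was -0.92 (standard error 0.16, limma adjusted p = 0.0018) with a ratio of medians below 2, so it was not called. Between 8.5 dpp and D28 the difference was -1.13 (standard error 0.16, limma adjusted p = 3.83e-05) and was called. Against 14.5 dpp the F test passed (limma adjusted p = 0.00725), with differences of -0.74 (D16), -0.85 (D22) and -0.63 (D28), but the ratio of medians stayed below 2 and Gli1 was not called.

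Gli2 was the only one of the 7 genes that was called higher in any comparison with the 8.5 dpp testes. It rose from 3.29, 3.27 and 3.26 FPKM at 8.5 dpp to 7.04 and 7.77 FPKM at 14.5 dpp in vivo, and to 6.82, 7.01 and 7.57 FPKM at D6. The in vivo increase was 0.98 (standard error 0.15, limma adjusted p = 0.000195), that in culture 0.93 (standard error 0.08, limma adjusted p = 1.01e-06), and D6 overlapped 14.5 dpp. In vivo it then declined to 0.339, 0.334 and 0.345 FPKM at 53.5 dpp, a difference from 8.5 dpp of -1.67 that changed to 0.61 after centring on Sertoli cell markers. Values this low have little room to fall under that centring. Without a pseudocount, its ratio to the markers was 0.0792 to 0.123 at 8.5 dpp and 0.0624 to 0.0683 at 53.5 dpp. At D28 Gli2 was at 5.62, 5.15 and 5.94 FPKM, a difference from 8.5 dpp of 0.62 (limma adjusted p = 1.76e-05, ratio of medians below 2, not called) that became -0.42 after that centring. The F test against 14.5 dpp passed (limma adjusted p = 0.00541), with differences from -0.68 to -0.36 and a ratio of medians below 2.

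Gli3, mainly a repressor, was at 3.65, 3.68 and 4.19 FPKM at 8.5 dpp and at 5.07 and 2.76 FPKM at 14.5 dpp. Every cultured library was below both testes, at 1.48, 2.15 and 1.56 FPKM at D6 and between 1.11 and 1.54 FPKM from D16 to D28. From 8.5 dpp to D6 it fell by 0.83 on the log2 scale (standard error 0.10, limma adjusted p = 2.68e-05). Gli3 was called lower against 14.5 dpp, by -1.08 (D16), -1.03 (D22) and -1.02 (D28) on the log2 scale (standard error 0.18 each, limma adjusted p = 0.00414 for the F test). At D6 the difference of -0.82 missed the threshold (limma adjusted p = 0.0642), but was called without the lower 14.5 dpp testis (-1.16, limma adjusted p = 0.0384). In vivo it was at 0.813, 1.003 and 1.72 FPKM at 24.5 dpp and at 0.113, 0.117 and 0.107 FPKM at 53.5 dpp, a difference from 8.5 dpp of -2.12 that was 0.16 after centring on Sertoli cell markers. Adult values this low have little room to fall under that centring. Without a pseudocount, its ratio to the markers was 0.0877 to 0.158 at 8.5 dpp and 0.0194 to 0.0227 at 53.5 dpp.

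Hhip, the ligand-binding inhibitor, showed the largest loss in culture. It was at 5.23, 4.21 and 6.27 FPKM at 8.5 dpp and at 5.08 and 4.92 FPKM at 14.5 dpp. It had dropped to 1.55, 1.75 and 1.36 FPKM by D6 and was at 1.66, 1.34 and 1.55 FPKM at D16. The D22 libraries had 0.649, 0.957 and 0.699 FPKM and the D28 libraries 0.496, 0.675 and 0.596 FPKM. No cultured library reached any testis of 8.5 or 14.5 dpp, and D6 and D16 did not overlap D22 and D28. The 14.5 dpp mean was 3.22 times that of D6 and 8.49 times that of D28.

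Against 14.5 dpp, Hhip was called lower at D6 (-1.23, standard error 0.12, limma adjusted p = 0.00381) and at the later times (-1.25 at D16, -1.77 at D22, -1.92 at D28, standard error 0.10 each, limma adjusted p = 2.77e-05 for the F test). The further decline from D6 to D28 was -0.68 (standard error 0.12, limma adjusted p = 0.000932). In vivo Hhip fell between 14.5 and 24.5 dpp, to 0.314, 0.103 and 0.497 FPKM, a step of -2.21 (standard error 0.14, limma adjusted p = 1.49e-08). It was listed at 0.171, 0 and 0 FPKM at 30.5 dpp, at 0.101, 0.0291 and 0 FPKM at 36.5 dpp and at 0.0235, 0 and 0.0566 FPKM at 53.5 dpp.

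Counted over the 7 genes, D16, D22 and D28 tissues differed from the 14.5 dpp testes at 2, Gli3 and Hhip, both lower at each of the 3 times. This comparison called 16.2% of all genes tested, with 5.35% lower and 6.56% higher for D16, 5.51% and 7.34% for D22, and 6.00% and 7.64% for D28. The median difference of the 7 genes at D28 was -0.63, against -0.08 for all genes tested. At D6, 1 of the 7, Hhip, was called, beside 7.94% of all genes tested, 2.37% being lower and 5.57% higher. Along the culture from 8.5 dpp the F test over 5 groups called 5 of 7, namely Smo, Gli1, Gli2, Gli3 and Hhip, beside 29.9% of all genes tested. By D6, 2 were called lower than at 8.5 dpp (Gli3 and Hhip), beside 6.23%, and 1 higher (Gli2), beside 9.90%. At D28, 4 were lower than at 8.5 dpp (Smo, Gli1, Gli3 and Hhip), beside 10.5%, and between D6 and D28 1 was lower, Hhip, beside 2.79%. These comparisons share the 14.5 dpp testes or the cultured libraries and are not independent of each other.

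**Figure D2:**
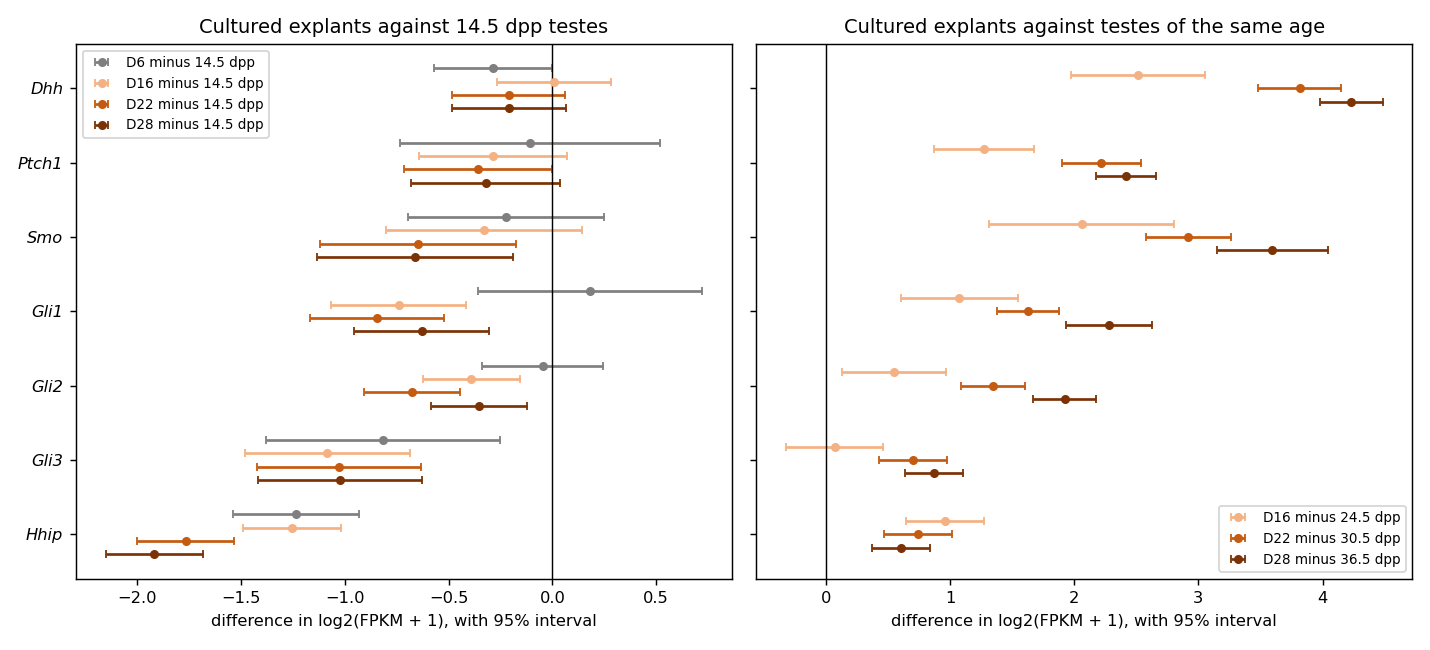
Differences in log2(FPKM + 1) between cultured explants and 14.5 dpp testes (left) or testes of the same age (right), with 95% intervals from limma. Against 14.5 dpp, Hhip lies furthest from 0, at -1.92 at D28, and the D28 interval of Dhh spans 0. Against testes of the same age the points lie to the right of 0, Dhh at 4.23 at D28, and the interval of Gli3 at D16 spans 0, but after centring on Sertoli cell markers those of Ptch1, Gli1, Gli2, Gli3 and Hhip at D28 lie to the left.

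Compared with testes of the same age, explants of D22 and D28 were called higher in FPKM at the 7 Hedgehog genes and those of D16 at 5, a direction that turned for all but Dhh and Smo at D22 and D28, and for Gli1 and Hhip at D16, when libraries were centred on Sertoli cell markers. At D6, against 14.5 dpp, only Hhip was called and it was lower. D16 tissues were called higher than 24.5 dpp testes at 5 of 7 genes (Dhh, Ptch1, Smo, Gli1 and Hhip), where 43.6% of all genes tested were called and 25.3% were higher. D22 tissues were called higher than 30.5 dpp testes at 7 of 7, beside 65.0% called and 42.1% higher, and D28 tissues higher than 36.5 dpp testes at 7 of 7, beside 70.3% called, 46.7% higher and 23.6% lower. At D28 the difference was 4.23 for Dhh (standard error 0.11, limma adjusted p = 3.91e-08) and 3.59 for Smo (standard error 0.19, limma adjusted p = 1.44e-06). Both stayed positive after centring each library on 5 Sertoli cell markers. Smo was then no longer called, because the ratio of its centred medians, which keep the pseudocount, was below 2. Without a pseudocount, Smo over the markers was 0.196 to 0.371 at D28 and 0.0578 to 0.0955 at 36.5 dpp. The differences of 2.42 for Ptch1, 2.28 for Gli1, 1.92 for Gli2, 0.87 for Gli3 and 0.61 for Hhip changed with that centring to -0.58, -0.72, -1.08, -2.13 and -2.39. That centring subtracts the same amount from every gene on the log2(FPKM + 1) scale. Testis values near or below 1 FPKM have little room to fall on it, at 36.5 dpp and for Hhip already at 24.5 dpp. Divided by the same markers without a pseudocount, Hhip did not turn at D16, at 0.0215 to 0.027 against 0.0045 to 0.0153 at 24.5 dpp. At D28 the ratio of Hhip, 0.00777 to 0.0094, overlapped that of 36.5 dpp, 0 to 0.0135. The median of all genes tested was itself shifted, by 0.12, 0.51 and 0.64 in the comparisons of D16, D22 and D28.

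Germ cells fill the maturing testis, and the markers of that lineage moved with these comparisons. The summed level of 8 germ cell markers ranged from 3510 to 4890 FPKM at 36.5 dpp and from 53.7 to 120 FPKM at D28. Of these 8, 7 were called lower in culture. Of all genes tested in this comparison, 23.6% were called lower and 46.7% higher. At D28, 6 of 7 tested Sertoli cell markers and 4 of 4 interstitial progenitor markers were called higher than at 36.5 dpp, as were 4 of 6 endothelial, 3 of 3 tested Schwann cell and 3 of 4 tested macrophage markers. Of 7 Leydig cell markers 4 were called lower, and of 6 tested peritubular markers 1 higher. Their part in the differences of the Hedgehog genes was not tested.

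The change over the same span was then compared between both settings, from D6 to D28 in culture and from 14.5 to 36.5 dpp in vivo. The difference of the changes was called for 7 of 7 genes, each positive, beside 56.5% of all genes tested called and 37.6% positive. Dhh changed by 0.08 in culture and by -4.44 in vivo, a difference of 4.52 (standard error 0.23, limma adjusted p = 6.74e-14). Gli1 changed by -0.81 in culture and -2.91 in vivo, and Hhip by -0.68 and -2.53. After centring on Sertoli cell markers the difference of the changes remained positive for Dhh and Smo, and was negative for Ptch1, Gli1, Gli2, Gli3 and Hhip. That of Smo, 0.74, then no longer passed (limma adjusted p = 0.0553), and the genes called were Dhh, higher, and Gli2, Gli3 and Hhip, lower. These centred values carry the same limit for low levels at 36.5 dpp. Without a pseudocount, the mean ratio of Hhip to the markers fell from 0.0288 (D6) to 0.00862 (D28). In vivo it fell further, from 0.0886 (14.5 dpp) to 0.00591 (36.5 dpp). That of Gli3 went from 0.0322 to 0.0199 in culture and from 0.0691 to 0.0413 in vivo.

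To set each gene against the cells that make the ligand, its FPKM was divided, library by library and with no pseudocount, by the geometric mean of the Sertoli cell markers Sox9, Sox8, Wt1, Fshr and Cldn11. These ratios are a description with no test. Of these markers, Cldn11 was itself called higher at 14.5 dpp and at D6 than at 8.5 dpp. It was also called higher at D28 than at D6, and lower at D6 than at 14.5 dpp. No other tested Sertoli cell marker was called in those comparisons. The ratios and the centred differences therefore also move with Cldn11, and its part was not tested. The ratio of Dhh was 2.48 ± 0.316 (SD, n = 3) at 8.5 dpp, 1.97 ± 0.0117 (SD, n = 2) at 14.5 dpp, 0.606 ± 0.0202 (SD, n = 3) at 36.5 dpp and 0.526 ± 0.0448 (SD, n = 3) at 53.5 dpp. The cultured values were 1.70 ± 0.194 (D6), 1.78 ± 0.0697 (D16), 1.42 ± 0.124 (D22) and 1.42 ± 0.214 (D28), each as SD with n = 3. Every cultured library (1.24 to 1.92) was thus above every testis of 24.5 dpp or older (0.474 to 0.846) and below both 14.5 dpp testes (1.96 and 1.98).

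Relative to the same markers, the other genes divided into 3 patterns at D28. Smo, at 0.196 to 0.371, lay above the 36.5 dpp testes (0.0578 to 0.0955). Ptch1 (0.150 to 0.165), Gli1 (0.109 to 0.158), Gli2 (0.0718 to 0.0881) and Hhip (0.00777 to 0.00940) overlapped the 36.5 dpp ranges, which were 0.160 to 0.184, 0.116 to 0.173, 0.0822 to 0.127 and 0 to 0.0135. Gli3 lay below, at 0.0189 to 0.0215 against 0.0382 to 0.0439. Per Sertoli marker, Ptch1 and Gli1 at D28 thus overlapped the 36.5 dpp testes, although their mean FPKM were 9.02 and 8.72 times higher.

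**Figure D3:**
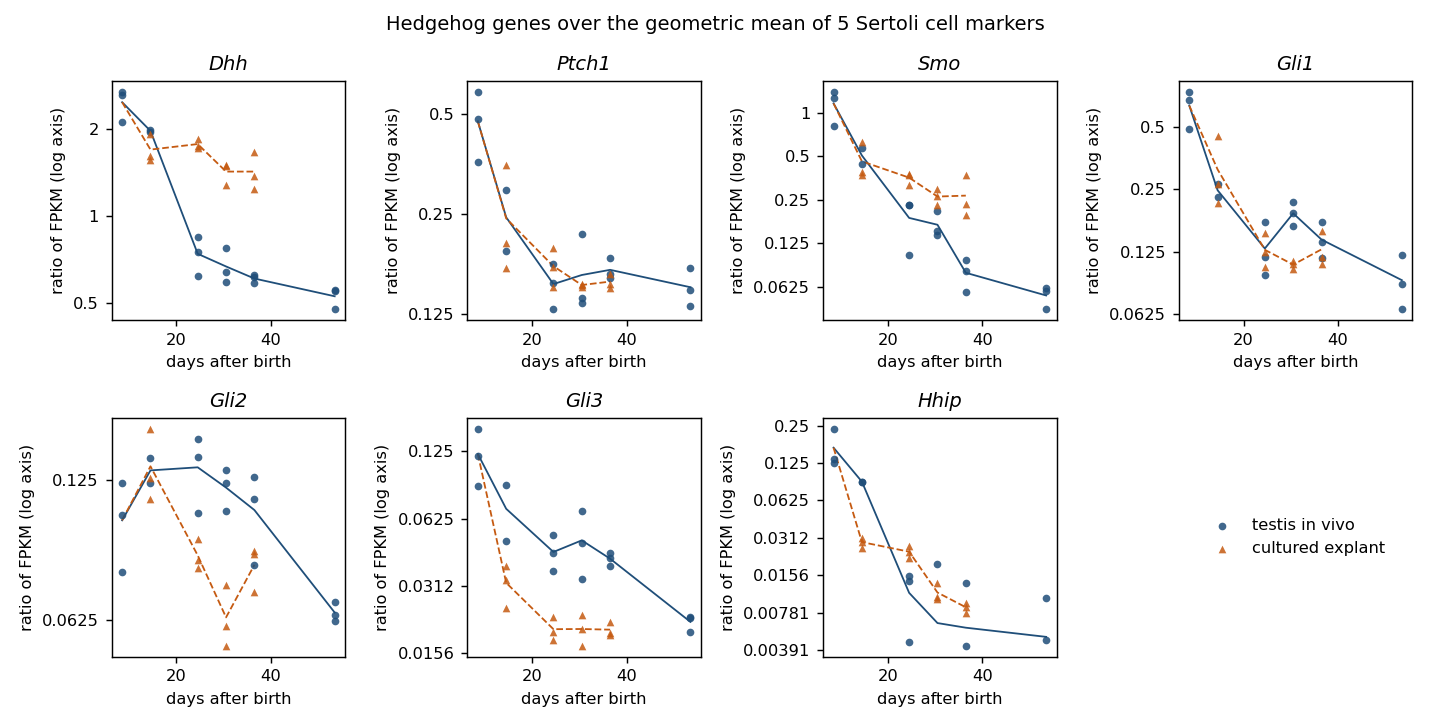
FPKM of each Hedgehog gene divided by the geometric mean of the FPKM of Sox9, Sox8, Wt1, Fshr and Cldn11 in the same library (vertical axis, log scale), against days after birth. Circles are testes, triangles are explants, and lines join group means. Libraries in which Hhip is listed at 0 are not drawn as points but enter the means. For Dhh the explants (1.24 to 1.92) stay above all testes from 24.5 dpp on, for Ptch1 and Gli1 explants and testes overlap at D28, and for Gli3 the explants lie below testes of the same age.

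Target genes were also set against the ligand in the same library, a comparison chosen after the values were seen. Gli1 over Dhh was 0.117 and 0.134 at 14.5 dpp and at least 0.117 in every testis, and between 0.0598 and 0.0956 in the 9 libraries of D16, D22 and D28. Ptch1 over Dhh was 0.0984 and 0.150 at 14.5 dpp, 0.258 to 0.316 at 36.5 dpp and 0.0996 to 0.121 at D28. Hhip over Dhh was 0.0449 and 0.0451 at 14.5 dpp and 0.00468 to 0.00758 at D28, which lay within the 36.5 dpp range of 0 to 0.0232. Hence per unit of Dhh RNA the 9 longer cultures had less Gli1 than any testis, without a test.

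Other genes of the pathway were taken from lists by role. Of 40 such genes, 31 are in the file, and Boc and Gas1 among the co-receptors were not analysed here. The other Hedgehog ligands were almost undetected, Shh at 0.144 FPKM at most and Ihh at 0.180 FPKM at most in any library, and neither was tested. Dhh was thus the only Hedgehog ligand RNA above 1 FPKM in these tissues.

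Among ligand maturation and release genes, 1 of 4 tested was called against 14.5 dpp, beside 16.2% of all genes tested. Hhatl, a relative of the Hedgehog acyltransferase, was higher by 1.66 (D16), 1.63 (D22) and 1.78 (D28) (standard error 0.21 each, limma adjusted p = 0.000826 for the F test). It was at 9.71, 9.15 and 10.6 FPKM at 8.5 dpp, listed at 0 and 0.384 FPKM at 14.5 dpp, at 1.60, 1.21 and 1.46 FPKM at D6 and at 4.17, 2.99 and 2.21 FPKM at D28. Every testis of 24.5 dpp or older was listed at 0. Disp1, which releases the lipid-bearing ligand, was at 6.94 and 5.77 FPKM at 14.5 dpp, 6.43 to 6.97 FPKM at D28 and 0.461 to 0.468 FPKM at 53.5 dpp.

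Of the receptors and co-receptors, 0 of 2 tested were called against 14.5 dpp, beside 16.2% of all genes tested. Cdon, a co-receptor, was at 9.12 and 9.40 FPKM at 14.5 dpp and at 5.73, 6.41 and 6.88 FPKM at D28, a difference of -0.49 (standard error 0.11, limma adjusted p = 0.00568) with a ratio of medians below 2. Between 8.5 and 53.5 dpp, 2 of 3 tested were called lower (Cdon and the glypican Gpc3) and Lrp2 higher. Of all genes tested, 50.2% were lower and 23.7% higher.

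The cytoplasmic and ciliary genes did not move together in the maturing testis. Of 13 tested, 7 were called higher and 4 lower at 53.5 than at 8.5 dpp, beside 23.7% and 50.2% of all genes tested. Their median difference was 1.63, against -0.74 for all genes tested. The 4 lower genes were Evc and Evc2, which encode ciliary partners of SMO, and Arrb2 and Grk2, an arrestin and a receptor kinase, and Evc went from 8.30 to 9.33 FPKM at 8.5 dpp to 0.154 to 0.325 FPKM at 53.5 dpp. Sufu, the cytoplasmic inhibitor that retains GLI proteins, was at 1.59, 1.64 and 1.45 FPKM at 8.5 dpp, at 8.88, 12.6 and 9.07 FPKM at 36.5 dpp and at 20.8, 26.5 and 23.7 FPKM at 53.5 dpp. In culture Sufu stayed between 1.11 and 1.495 FPKM in the 12 libraries, with a D28 minus 36.5 dpp difference of -2.24 (standard error 0.15, limma adjusted p = 5.45e-06). Stk36, named here after its values were seen, a kinase linked to GLI activity and to motile cilia, rose likewise from 1.85 to 1.95 FPKM at 8.5 dpp to 21.8 to 29.4 FPKM at 53.5 dpp. The summed germ cell markers went from 27.8 to 30.6 FPKM at 8.5 dpp to 12300 to 17800 FPKM at 53.5 dpp, and their part in these rises was not tested.

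Against 14.5 dpp, 1 of these 13 genes was called, beside 16.2% of all genes tested. Kif3a, a motor subunit of ciliary transport, was lower at D28 by -1.20 (standard error 0.22), at 2.04, 1.40 and 1.52 FPKM against 4.29 and 5.96 FPKM. Of 8 tested genes known as pathway targets in other tissues, 2 were called against 14.5 dpp, both lower. The share of all genes called there was 16.2%, with 6.00% lower at D28. Ccnd1, which encodes cyclin D1, was at 17.7 and 25.6 FPKM at 14.5 dpp and at 8.75, 9.94 and 8.61 FPKM at D28, and Bmp4, a growth factor gene, was at 3.68 and 1.70 FPKM against 0.351, 0.763 and 0.542 FPKM. At 53.5 dpp all 8 were called lower than at 8.5 dpp, beside 50.2% of all genes tested.

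**Figure D4:**
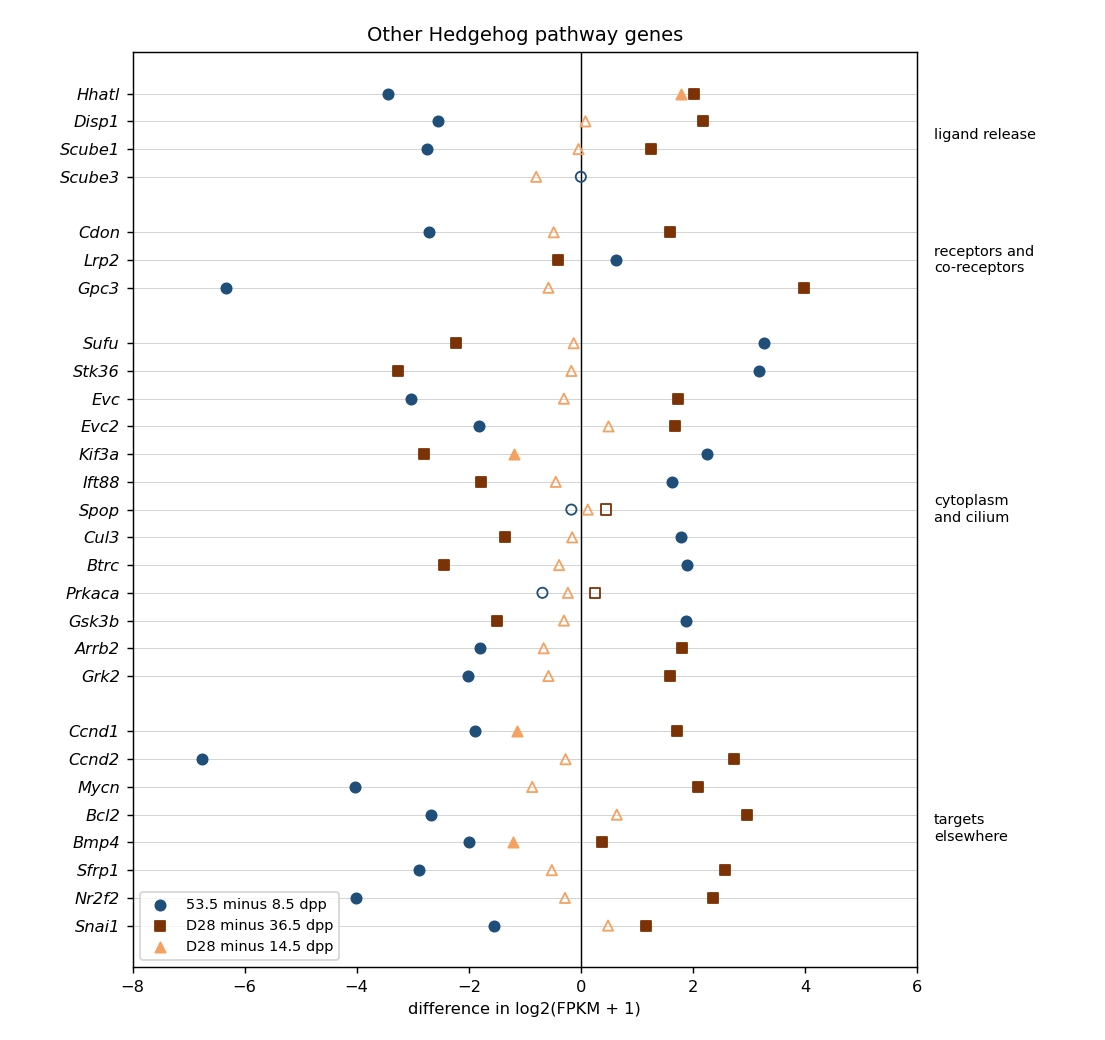
Differences in log2(FPKM + 1) of the other pathway genes, by role, for 53.5 minus 8.5 dpp (circles), D28 minus 36.5 dpp (squares) and D28 minus 14.5 dpp (triangles), with called differences filled and genes not tested left without a symbol. Release genes, receptors and targets are mostly lower in the adult testis, Sufu and Stk36 are higher there (3.26 and 3.18), and D28 explants were called against 14.5 dpp testes at Hhatl, Kif3a, Ccnd1 and Bmp4.

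The cells that receive the ligand were followed through their markers in the same libraries. The summed level of 7 Leydig cell markers, most of them steroidogenic genes, was 146 and 306 FPKM at 14.5 dpp, 16.8 to 24.3 FPKM at D6 and 25.4 to 37.3 FPKM at D28. Of these 7, 6 were called lower at D6, beside 2.37% of all genes tested, and 1, Hsd17b3, higher, beside 5.57%. At each later time 5 were lower (Star, Cyp11a1, Hsd3b1, Cyp17a1 and Insl3), beside 5.35% to 6.00%. The 7 peritubular myoid markers summed to 317 and 523 FPKM at 14.5 dpp and to 106 to 138 FPKM at D28. Of these, 6 of 7 were called lower at D28 and 0 of 7 at D6, beside 6.00% and 2.37% of all genes tested. Against 8.5 dpp, 6 of 7 were called lower already at D6, beside 6.23%. Their median difference there was -1.17, against 0.06 for all genes tested. Acta2, smooth muscle actin, was at 243 and 126.5 FPKM at 14.5 dpp and at 28.1, 51.6 and 51.9 FPKM at D28.

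Of the 4 interstitial progenitor markers, Pdgfrb alone was called higher than at 14.5 dpp at D6 and D16, beside 5.57% and 6.56% of all genes tested. None was called at D22 or D28. The 4 markers summed to 139 and 178 FPKM at 14.5 dpp and to 147 to 192 FPKM at D28. Against 8.5 dpp, however, 3 of 4 (Nr2f2, Pdgfra and Tcf21) were called lower at D28, beside 10.5% of all genes tested. Tested Sertoli cell markers were called against 14.5 dpp at 0 of 7 at D28, where 6.00% of all genes tested were lower and 7.64% higher. Their summed level was 711 and 739 FPKM at 14.5 dpp and 731 to 846 FPKM at D28. Gata1, listed among the Sertoli cell markers, is at 0 in every library. Endothelial markers summed to 29.8 and 35.9 FPKM at 14.5 dpp and to 53.7 to 87.5 FPKM at D28, and Schwann cell markers to 86.1 and 117 FPKM against 111 to 125 FPKM. Low Gli3 and Hhip in culture thus came with low Leydig and peritubular markers. In vivo at 30.5 dpp, with Hhip at 0.171 FPKM at most, Leydig markers summed to 338 to 569 FPKM. Peritubular markers summed to 60.3 to 78.3 FPKM at that age. The part of these cells in the result was not tested.

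The genes whose pattern over the 29 libraries was most like each member were found by Pearson correlation of log2(FPKM + 1) among 12762 genes, a description in which all libraries share the strong change of the maturing testis. Dhh was most like Amigo2 (r = 0.996), Tox and Btbd6 (r = 0.995 each). Ptch1 was most like Extl3 and Smo (r = 0.992 each) and Pqbp1 (0.991), and Smo like Pqbp1 (0.993) and Ptch1 (0.992). Gli1 was most like Ptms, Twist1 and Csrp1 (r = 0.989 each), and Gli2 like Sertad4 (0.991), Arrb2 (0.985) and Nlrp4 (0.984). Gli3 was most like Mturn (r = 0.971), Skp2 (0.969) and Ston2 (0.967), and Hhip like Ntf3 (0.980), Fam111a (0.962) and Bcl11b (0.956). Among the members, Hhip stood closest to Gli3 (r = 0.924) and least close to Gli2 (r = 0.640), while its r with Dhh was 0.732.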

How the data were processed

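RNA sequencing values of 29 libraries in 10 groups were used. The authors aligned 50 bp reads of stranded poly(A) libraries to the rat genome rn6 with STAR 2.5.2a, quantified RefSeq transcripts with StringTie and Ballgown, and deposited 1 FPKM value per gene and library, scaled to transcript length and mapped reads. The submitters' processing notes also name bcl2fastq 2.17.1.14. Of 17322 Entrez Gene identifiers, 17172 matched a RefSeq gene table.

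The deposited FPKM were put on a log2(FPKM + 1) scale. A gene entered a test when its group median reached 0.5 FPKM in 1 or more compared groups, and was tested with limma 3.58.1 (lmFit and eBayes, R 4.3.3), each comparison in a fit of its own groups except the comparison of changes, which used all 10 groups. Comparisons of several groups used the F test, and single contrasts the moderated test. All p-values were adjusted by Benjamini-Hochberg over all genes tested. The change over time was called at a difference of at least 1 on the log2 scale. A contrast with 14.5 dpp in the 4-group fit was called by the F test and its own ratio of medians. The fits were tested on simulated data with known changes. Promoter sequences came from a RefSeq-based promoter set that held 6 of the 7 genes, without an entry for Gli1. Ratios, counts and figures were made in Python (numpy, pandas and matplotlib).

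Genes named are the 7 members, the other ligands, Cdon and Sufu, list genes called against 14.5 dpp, and the 3 genes most like each member. Some items under this rule and in the lists are not reported here. Disp1, Stk36, Gpc3, Lrp2, Evc, Evc2, Arrb2, Grk2, Hsd17b3, Acta2, Csnk1a1 and Gata1 were named, and the ratios to Dhh chosen, after their values were seen. The members and lists were chosen with earlier results of these data known. The paper reports independent RNA sets within a time point, with each cultured library drawn from at least 3 males. Nothing in the sources says whether cultured libraries of different time points share animals, so p-values measure the spread between these libraries. Alternatives changed the pseudocount, low-value filter, fold criterion, normalization, prior variance and groups fitted, added a replicate block, or left out each library in turn.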

Additional observations from a re-analysis of the deposited data

Results flagged for a closer look

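For 7 of 7 Hedgehog genes the change from D6 to D28 in culture differed from the change from 14.5 to 36.5 dpp in vivo by the limma test of the difference itself. The differences on the log2(FPKM + 1) scale were 4.52 for Dhh, 2.53 for Ptch1, 3.82 for Smo, 2.10 for Gli1, 1.97 for Gli2, 1.69 for Gli3 and 1.84 for Hhip, beside 56.5% of all genes tested that were called. The same test, run after centring on Sertoli cell markers, gave negative values for Ptch1, Gli1, Gli2, Gli3 and Hhip, and called Dhh, Gli2, Gli3 and Hhip. At 36.5 dpp the values of Smo, Gli2, Gli3 and Hhip in every library, and those of Gli1 in 2 of 3, were below 1 FPKM, where the log2(FPKM + 1) scale compresses differences.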

How the results depend on the processing

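Of the differences recomputed for single Hedgehog genes, 1429 kept their direction and their side of the threshold, 16 passed it newly, 27 no longer passed it and 38 changed direction. Without a fold criterion, 4 genes were called at D16, D22 and D28 against 14.5 dpp in place of 2 (Gli1 and Gli2 added), and with centring on Sertoli cell markers 4 (Smo and Gli1 added). At D6, 2 were called in place of 1 with all 10 groups in 1 fit, and 1 to 2 when each library was left out. Centring on Sertoli cell markers gave 2 called at D16 against 24.5 dpp, 4 at D22 against 30.5 dpp, 4 at D28 against 36.5 dpp and 4 for the difference of the changes. These were Dhh, higher, and Gli3, lower, at D16, and Dhh, higher, with Gli2, Gli3 and Hhip, lower, in each of the others. Testis values near or below 1 FPKM have little room to fall under this centring, which also limits the turned differences below. Without a pseudocount, Gli2 and Hhip over the markers overlapped between D28 and 36.5 dpp. Smo, not called at D28 after the centring, lay above the 36.5 dpp testes in that ratio. Hhip at D22, 0.0101 to 0.0135, lay within the 30.5 dpp range, 0 to 0.0193.

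The same centring turned the following differences. D16 minus 14.5 dpp became -0.13 for Dhh, D6 minus 14.5 dpp 0.030 for Gli2, and 53.5 minus 8.5 dpp 0.61 for Gli2 and 0.16 for Gli3. D28 minus 8.5 dpp became -0.78 for Dhh and -0.42 for Gli2. Cldn11, among the markers used for centring, was itself called higher at D6 than at 8.5 dpp and at D28 than at D6. D16 minus 24.5 dpp became -0.15 for Gli1, -0.68 for Gli2, -1.16 for Gli3 and -0.27 for Hhip. D22 minus 30.5 dpp became -0.46 for Ptch1, -1.05 for Gli1, -1.33 for Gli2, -1.97 for Gli3 and -1.93 for Hhip. D28 minus 36.5 dpp became -0.58 for Ptch1, -0.72 for Gli1, -1.08 for Gli2, -2.13 for Gli3 and -2.39 for Hhip. The difference of the changes became -0.55 for Ptch1, -0.98 for Gli1, -1.11 for Gli2, -1.39 for Gli3 and -1.24 for Hhip.

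With quantile normalization Dhh at D16 minus 14.5 dpp was -0.085 and Gli3 at D16 minus 24.5 dpp was -0.016. Leaving out single libraries gave ranges of -0.022 to 0.047 for Dhh and -0.59 to 0.017 for Ptch1 at D16 minus 14.5 dpp, -0.41 to 0.20 for Ptch1, -0.014 to 0.33 for Gli1 and -0.11 to 0.016 for Gli2 at D6 minus 14.5 dpp, and -0.050 to 0.24 for Gli3 at D16 minus 24.5 dpp. Single 14.5 dpp testes decided whether Gli3 at D6, and Ptch1, Smo, Gli1 (D28) and Gli2 as contrasts with 14.5 dpp, passed an adjusted p of 0.05. Single cultured libraries mattered too. As a contrast with 14.5 dpp, Smo at D22 no longer passed without any 1 of the D16 libraries, or without D22 replicate 1 or 2. Smo at D28 did not pass without D28 replicate 2 or 3, nor Gli2 at D16 without D16 replicate 2 or 3. With quantile normalization Smo missed at D22 and D28 (limma adjusted p = 0.0526 and 0.0521), and with no low-value filter at D22 (0.0506). The cause of these shifts was not tested.

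Same-numbered libraries correlated between -0.131 and 0.218 in their deviations from the group means, so the replicate numbers were not taken as pairs. A replicate block left every count of called Hedgehog genes as it was, with 2 at D16, D22 and D28 against 14.5 dpp and 1 at D6. It turned Dhh at D16 minus 14.5 dpp to -0.0048 and Gli1 at D6 minus 14.5 dpp to -0.014, and the single contrasts of Smo at D22 and D28 with 14.5 dpp no longer passed (limma adjusted p = 0.0623 and 0.0528). The absolute depth is unknown, so the precision of values below 1 FPKM, such as Hhip in the older testes, could not be given.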
